A study of Mus musculus with 36 samples.

Results

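The leukocyte integrins and the hyaluronan receptor gene *Cd44* form a set of 10 genes, chosen by name from the 24781 genes of the deposited count table: *Itgam*, *Itgax*, *Itgal*, *Itgae*, *Itgav*, *Itga4*, *Itgb1*, *Itgb2*, *Itgb7* and *Cd44*. They were measured by digital RNA sequencing, which counts distinct polyA RNA molecules, in 36 libraries of 100 cells sorted from MC38 tumours (a mouse colon adenocarcinoma line) on day 7 after inoculation. Tumour-associated macrophages (TAMs) were gated as CD45+CD11b+F4/80 high and CD8+ T cells as CD45+TCRβ+CD8+. Each cell type had 6 libraries from WT mice, 6 from *muMt*-/- mice, a line without mature B cells, and 6 from *muMt*-/- mice with a slow-release GABA pellet, with 1 library per mouse by the study's methods. The labels give the treatment of the WT and *muMt*-/- groups as none, whereas the methods describe placebo pellets. The *muMt*-/- line was on C57BL/6J, WT mice were on C57BL/6J or the related C57BL/6N, and the methods name both sexes and an age of a few months for the study as a whole. All 36 libraries held molecules of a Y-linked gene. The genotype was not checked on the targeted immunoglobulin gene, which was not analysed here.

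Integrins are paired receptors of an α and a β chain that tether leukocytes to endothelium, to other cells and to matrix. The β2 chain joins αL, αM or αX into receptors that bind ICAMs or complement fragments, β7 joins α4 or αE for homing to and residence in epithelia, and β1 or αV joins partners that bind fibronectin, VCAM1 or other matrix ligands. In tumours such receptors take part in monocyte recruitment, macrophage adhesion and T cell retention, and CD44 binds hyaluronan and marks antigen-experienced T cells.

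Depth differed between groups. The sum over all genes in a TAM library was 206394 to 304100 molecules for WT (median 242756), 100254 to 253608 for *muMt*-/- (median 149960) and 151856 to 262606 for *muMt*-/- plus GABA (median 192775). CD8+ T cell libraries were shallower, at 22896 to 76898, 51064 to 77839 and 65356 to 98015 molecules in the same order. A single molecule was thus worth 3.29 CPM (the library-scaled share of molecules) in the deepest library and 43.7 CPM in the shallowest. Of the 10 members, 9 passed the filter of a mean normalized number of molecules above 1 in each fit and were tested. *Itgae*, which encodes αE (CD103), did not pass in any fit, with 5 molecules in 4 of 18 TAM libraries and 16 molecules in 10 of 18 CD8+ libraries. Within a cell type, levels are given below as normalized molecules per library, meaning counts divided by DESeq2 size factors, and across cell types as CPM. In sorted cells measured in bulk, fewer cells expressing a gene and less RNA of it per cell cannot be told apart.

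The first question was whether the absence of B cells moved integrin transcripts in TAMs. Between *muMt*-/- and WT TAMs, edgeR's quasi-likelihood test called 1 of the 9 members at an adjusted p under 0.05, where 2.05% of 9469 genes were called. At an unadjusted p under 0.05, 3 members were higher and 0 lower, where 14.9% of genes passed and 6.72% passed as higher. The median log2 fold change of the 9 members was 0.12, against −0.05 over all genes tested.

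*Itgam* encodes αM (CD11b), the chain on which the TAMs were sorted, which with β2 forms the complement receptor Mac-1. Its lowest, median and highest normalized numbers were 73.3, 92.9 and 145 in WT TAMs, 133, 153 and 197 in *muMt*-/- TAMs, and 86.4, 118 and 158 in GABA-treated *muMt*-/- TAMs. All 6 *muMt*-/- libraries lay above the WT median and 4 lay above every WT library, so the groups overlapped only through WT replicate 4. *Itgam* rose by 0.66 log2 units (SE 0.168, 95% interval 0.33 to 0.99) in *muMt*-/- TAMs, with an adjusted p of 0.0277 in edgeR's quasi-likelihood test. The call was lost in 7 of 12 fits that left out 1 library, with edgeR adjusted p-values of 0.0909, 0.0554, 0.0615 and 0.0620 without WT replicate 1, 3, 5 or 6, and 0.0754, 0.0513 and 0.0875 without *muMt*-/- replicate 1, 2 or 4. The median *muMt*-/- TAM library was shallower than the median WT one, and with library depth as a covariate the difference of *Itgam* was 0.46 (edgeR adjusted p 0.476) and 11 genes in all were called in place of 194.

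*Itgb2* encodes β2 (CD18), the shared partner of αM, αX and αL. It was at 48.6, 97.4 and 129 normalized molecules (lowest, median, highest) in WT TAMs, 121, 139 and 165 in *muMt*-/- TAMs, and 79.8, 106 and 142 with GABA. Of the 6 *muMt*-/- libraries, 5 exceeded every WT library and the remaining library exceeded all but WT replicate 5. The log2 difference from WT was 0.59 (SE 0.174, 95% interval 0.25 to 0.93) and did not pass (edgeR adjusted p 0.0631). It passed in edgeR with DESeq2's size factors (adjusted p 0.0434), in DESeq2's Wald test (0.0377), without the filter on low numbers (0.0375) and without WT replicate 5 (0.0253). With depth as a covariate the difference was 0.69 and did not pass (adjusted p 0.250).

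Neither of the other β2 partners passed. *Itgax*, for αX (CD11c), had medians of 22.1, 22.8 and 23.6 normalized molecules in WT, *muMt*-/- and GABA-treated *muMt*-/- TAMs, and the 18 libraries ran from 9.29 to 33.3. Its log2 difference between *muMt*-/- and WT TAMs was −0.02, with a 95% interval of −0.48 to 0.43. *Itgal*, for αL (CD11a), the chain of LFA1 that binds ICAMs, had medians of 19.2, 12.5 and 14.3, and 3 of 6 *muMt*-/- libraries lay below every WT library. That difference was −0.39 (95% interval −0.99 to 0.20) and did not pass. Whether *Itgam* or *Itgb2* differed from *Itgax* or *Itgal* in its change was not tested.

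**Figure D1:**
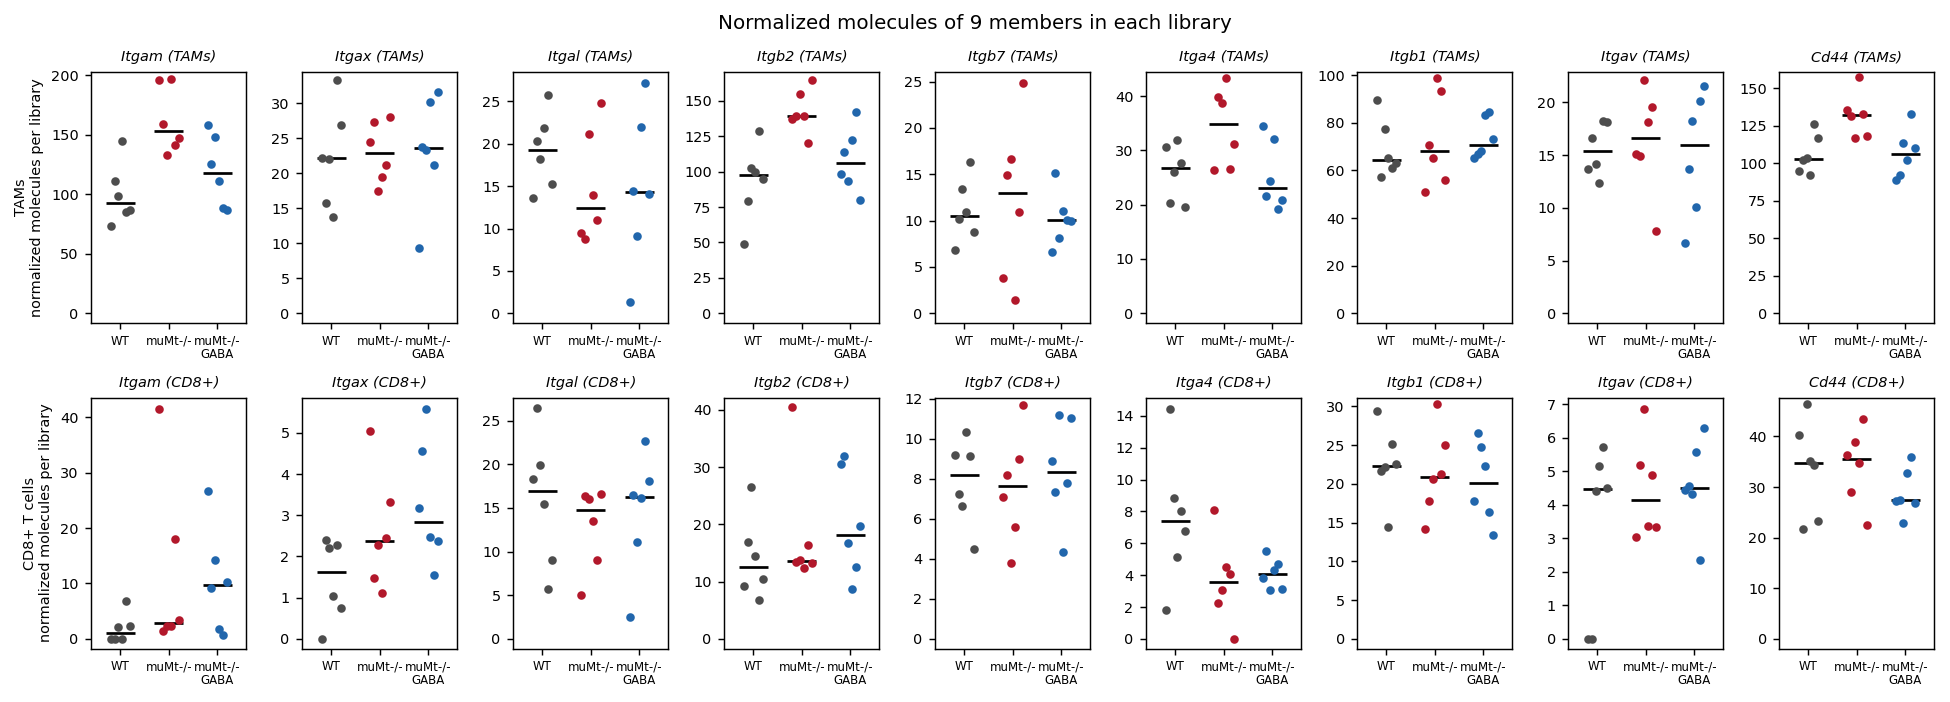
Normalized molecules per library (y axis, each panel on its own scale from 0) of 9 members in TAMs (upper panels) and CD8+ T cells (lower panels), by group, with 1 point per library and a bar at the median of 6. In TAMs, 5 of 6 *muMt* libraries of *Itgb2* and 4 of 6 of *Itgam* lie above every WT library.

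Among the chains that serve epithelial homing and residence, *Itgb7*, which encodes the β7 partner of α4 and αE, had medians of 10.5, 12.9 and 10.02 normalized molecules in WT, *muMt*-/- and GABA-treated TAMs. Its *muMt*-/- libraries were the most scattered, from 1.39 to 24.9, and spanned the whole WT range of 6.82 to 16.3. The log2 difference was 0.12 (95% interval −0.50 to 0.75). *Itgae* had 2, 0 and 3 molecules in the 3 TAM groups, and the count of 0 over the 987468 molecules of the *muMt*-/- group allows up to 3.04 CPM. Limits from pooled molecules such as this cover counting error only.

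*Itga4* encodes α4 (CD49d), which joins β1 to bind VCAM1 and fibronectin and joins β7 for gut homing. It was at 19.6, 26.8 and 32.0 normalized molecules in WT TAMs (lowest, median, highest), 26.4, 34.9 and 43.2 in *muMt*-/- TAMs, and 19.1, 23.0 and 34.5 with GABA. The upper 3 *muMt*-/- libraries lay above every WT library, and the lower 3 lay within the WT range. The log2 difference of 0.37 (95% interval −0.00 to 0.75) had an unadjusted p of 0.0595 and did not pass. The shared partner *Itgb1* (β1, CD29) had medians of 64.3, 68.2 and 70.6, with a log2 difference between *muMt*-/- and WT TAMs of 0.07 (95% interval −0.26 to 0.39). *Itgav*, for the αV chain of matrix receptors, had medians of 15.4, 16.6 and 16.0 and a difference of 0.10 (95% interval −0.38 to 0.57). For *Itgb1* and *Itgav* the *muMt*-/- libraries extended beyond the WT libraries at both ends.

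*Cd44* was at 92.3, 103 and 126 normalized molecules in WT TAMs, 117, 133 and 158 in *muMt*-/- TAMs, and 88.9, 107 and 133 with GABA. All 6 *muMt*-/- libraries lay above the WT median and 4 above every WT library. The log2 difference was 0.29 (95% interval 0.01 to 0.57), with an unadjusted p of 0.0499 and an edgeR adjusted p of 0.336, so it did not pass.

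Other measures also moved with this contrast. The summed level of 20 macrophage markers, all detected in every TAM group and led by *Apoe*, was 17796 to 22089 CPM in WT TAMs (median 20702), 14972 to 19131 in *muMt*-/- TAMs (median 16318) and 10859 to 19765 with GABA (median 18677). The 4 monocyte genes *Ly6c2*, *Ccr2*, *Plac8* and *Chil3*, a list chosen after values had been seen and led by *Ccr2* in TAMs, summed to 1398 to 1920 CPM in WT TAMs (median 1585), 1376 to 3221 in *muMt*-/- TAMs (median 3109) and 1717 to 2369 with GABA (median 2129). In this monocyte sum 5 of 6 *muMt*-/- libraries exceeded every WT library and replicate 5 lay below all of them. Neutrophil markers, with *Retnlg* at 0 in every TAM group and *Csf3r* the most abundant, had median sums of 43.3, 116 and 85.6 CPM. Their ranges of 27.3 to 191, 47.3 to 153 and 39.5 to 115 CPM overlapped, and the highest library was WT replicate 5. The part of these cell types and of library depth in the *Itgam* and *Itgb2* results was not tested beyond the depth covariate.

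The second question was whether a GABA pellet moved these transcripts in TAMs without B cells. Between GABA-treated and untreated *muMt*-/- TAMs, edgeR's quasi-likelihood test called 0 of 9 members, where 0.0211% of genes (2 of 9469) were called, and DESeq2's Wald test also called 0 members. At an unadjusted p under 0.05, 3 members were lower and 0 higher, against 8.46% of all genes and 3.31% as lower. This count of 3 was 0 without GABA replicate 6, and 1 without *muMt*-/- replicate 2 or 3 or with depth as a covariate. These 3 were *Itgam*, at −0.41 log2 units (95% interval −0.74 to −0.08, unadjusted p 0.0198), *Itga4*, at −0.43 (−0.82 to −0.04, 0.0355), and *Itgb2*, at −0.37 (−0.71 to −0.03, 0.0420). Next came *Cd44* at −0.28, with an interval of −0.56 to 0.01. For *Itgam*, *Itgb2* and *Itga4*, 4 of 6 GABA libraries lay below every untreated *muMt*-/- library, and for *Cd44* 5 of 6 did, while the highest GABA library of each lay within the untreated range. *Itgb7* was at −0.22, *Itgav* at −0.12, *Itgb1* at 0.03, *Itgal* at 0.05 and *Itgax* at 0.10, with intervals that held 0.

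GABA-treated *muMt*-/- TAMs were also set against WT TAMs. This comparison shares its groups with both others, so the 3 are not independent. Here 0 of 9 members were called by edgeR, where 0.0739% of genes were, and 0 reached an unadjusted p under 0.05, where 7.02% did. The latter count was 1 without WT replicate 4, with *Itgam* at 0.39 (edgeR unadjusted p 0.0298). DESeq2's Wald test called 0. With all libraries the values were as follows. *Itgam* stood at 0.25 (95% interval −0.08 to 0.58) and *Itgb2* at 0.23 (−0.12 to 0.57), and *Cd44* and *Itga4* at 0.01 and −0.06. *Itgal* was at −0.35 (−0.91 to 0.22), and *Itgax*, *Itgav*, *Itgb1* and *Itgb7* lay between −0.09 and 0.10. In the order of medians, *Itgam*, *Itgb2* and *Cd44* ran from WT through GABA-treated to untreated *muMt*-/- TAMs, and the WT and GABA-treated libraries of each overlapped broadly.

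**Figure D2:**
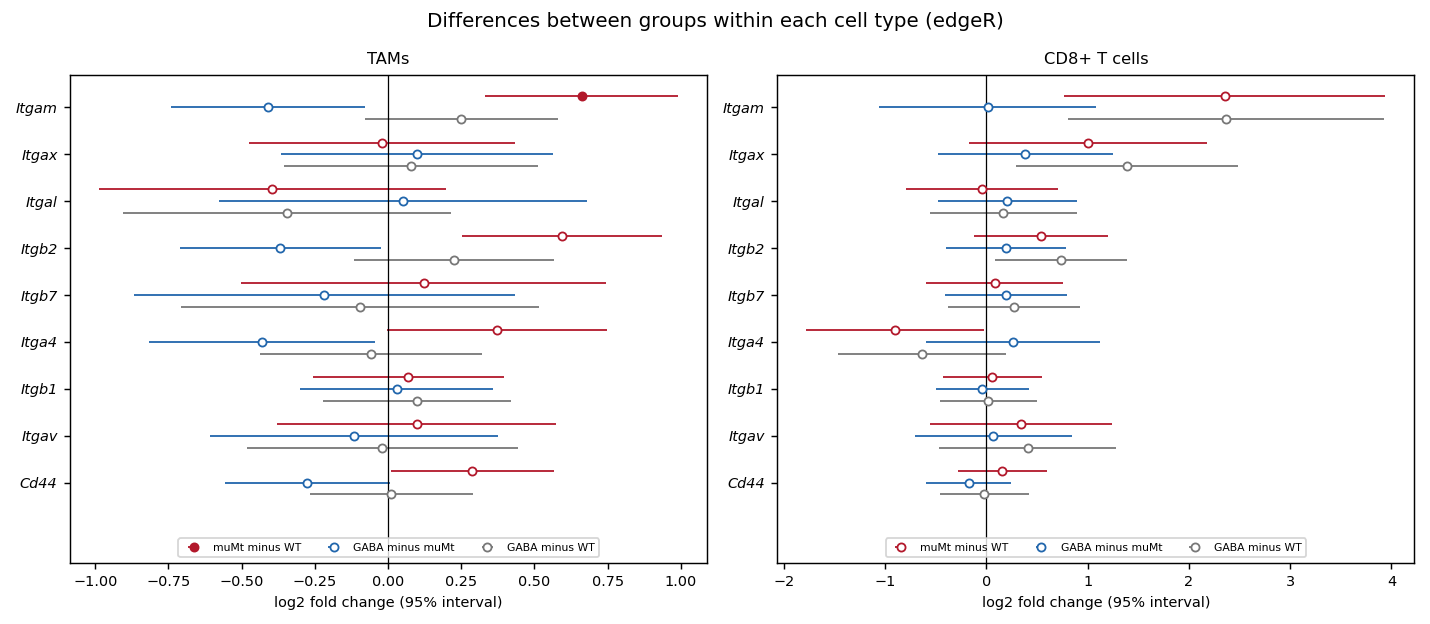
Log2 fold changes (x axis) of 9 members with 95% intervals in 3 comparisons within TAMs (left) and within CD8+ T cells (right), where filled points passed an adjusted p of 0.05 in edgeR. The filled point is *Itgam* between *muMt* and WT TAMs at 0.66.

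In CD8+ T cells, edgeR called 0 of 9 members and 0 of 6663 genes (0%) between *muMt*-/- and WT mice, 0 members and 0 genes (0%) between GABA-treated and untreated *muMt*-/- mice, and 0 members and 0 genes (0%) between GABA-treated *muMt*-/- and WT mice. DESeq2's Wald test called 0 members in each. At an unadjusted p under 0.05 the member counts were 1, 0 and 3 of 9, against 6.17%, 3.71% and 6.89% of all genes. The 3 members of the last comparison were all higher, as were 5.99% of genes, but only 1 was higher without WT replicate 1 (with 1 lower) or 6, in the Wald test, or with depth or macrophage markers as a covariate. Between *muMt*-/- and WT mice the count was 2 without WT replicate 1, 3 or 4 or *muMt*-/- replicate 4. It was also 2 with DESeq2's size factors, in the Wald test, with the replicate number as a block and with macrophage markers as a covariate. Without *muMt*-/- replicate 1 the member counted was a lower one. The median log2 fold change of all genes was 0.15, 0.03 and 0.21 in these comparisons with TMM scaling, and 0.06, −0.02 and 0.06 with DESeq2's size factors, so that small differences between CD8+ groups depend on the scaling.

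*Itgam* is not a gene that defines CD8+ T cells, and its counts there were low and uneven. Over replicates 1 to 6 they were 0, 0, 1, 0, 6 and 3 molecules in WT mice, 41, 2, 3, 2, 22 and 4 in *muMt*-/- mice, and 42, 10, 23, 3, 1 and 13 with GABA. The high libraries were *muMt*-/- replicates 1 and 5 and 4 of the 6 GABA libraries, and the other libraries overlapped with WT. The log2 differences from WT were 2.35 (95% interval 0.77 to 3.94, unadjusted p 0.00608, edgeR adjusted p 0.500) in *muMt*-/- mice and 2.37 (0.81 to 3.93, 0.00512, 0.458) with GABA, and neither passed. Leaving out 1 library moved the *Itgam* difference between 1.43 (without *muMt*-/- replicate 1) and 3.28 in *muMt*-/- mice, and between 1.77 and 3.31 with GABA, and none of these passed. Without the filter on low numbers, edgeR called both (adjusted p 0.000112 and 0.000103).

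Macrophage markers in the same libraries followed *Itgam* closely. The 20 markers summed to 205 to 2010 CPM in WT CD8+ libraries (median 450; *Adgre1*, *Mrc1* and *Mertk* at 0), 1104 to 6644 in *muMt*-/- libraries (median 1569; 0 markers at 0) and 391 to 4064 with GABA (median 2311; 0 at 0), with *Ctsb* the most abundant in each. Tested by exact permutation (two-sided, 924 ways to split 12 libraries), the mean log2 sum differed by 1.95 between *muMt*-/- and WT mice (p 0.0173, adjusted over 3 comparisons 0.0519), by −0.28 between GABA-treated and untreated *muMt*-/- mice (p 0.706, adjusted 0.706) and by 1.67 between GABA-treated *muMt*-/- and WT mice (p 0.0649, adjusted 0.0974). The difference between *muMt*-/- and WT mice passed without WT replicate 5 (2.35, exact p 0.00216, adjusted 0.00649), and that between GABA-treated and WT mice passed without WT replicate 5 (2.07, adjusted exact p 0.0455) or GABA replicate 5 (2.08, adjusted exact p 0.0390). Over the 18 CD8+ libraries, *Itgam* in CPM and this sum had a Spearman rho of 0.944, and the 6 libraries highest in *Itgam* were the 6 highest in the sum. With the macrophage sum as a covariate, the *Itgam* differences from WT were −0.01 and 0.26. As a share of the mean TAM level, *Itgam* in CD8+ libraries reached 0 to 21.6% in WT, 3.12 to 77.5% in *muMt*-/- and 2.30 to 68.0% in GABA-treated mice, while the macrophage sum reached 1.01 to 9.88%, 6.62 to 39.9% and 2.31 to 24.0%.

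**Figure D3:**
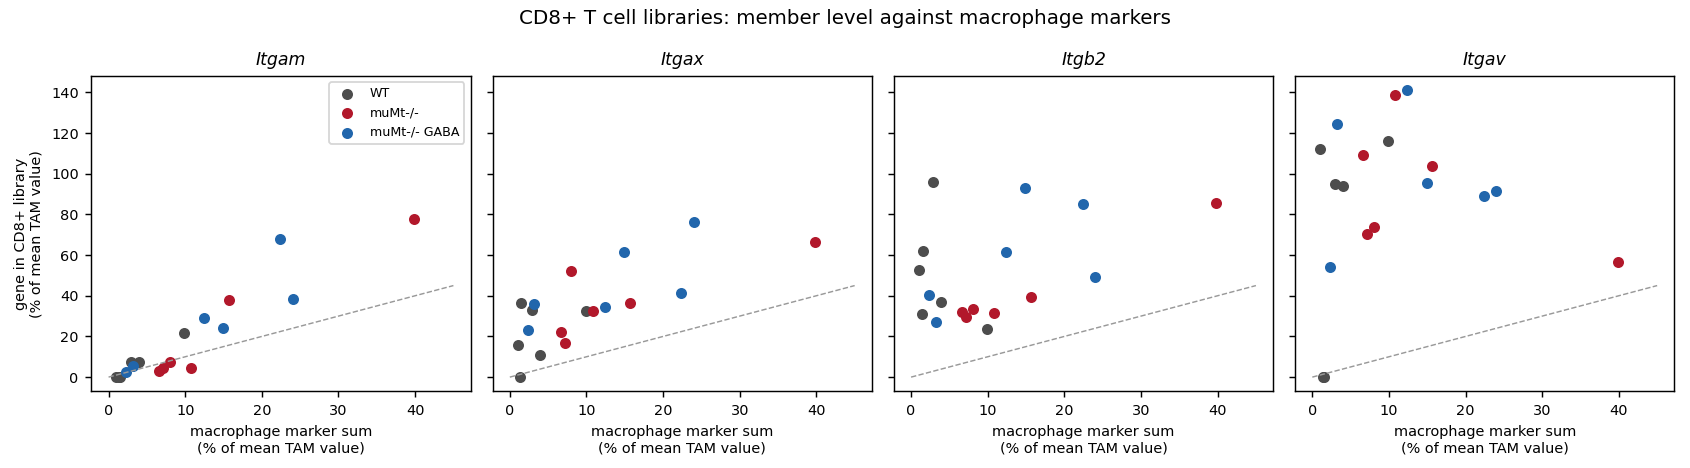
Level of *Itgam*, *Itgax*, *Itgb2* and *Itgav* in each CD8+ T cell library (y axis) against the summed level of 20 macrophage markers in it (x axis), both as % of the mean TAM level of the same genotype and treatment, with a dashed line at equal shares. *Itgam* rises with the marker sum over the 18 libraries, from 0 in 3 WT libraries to 77.5% at a marker share of 39.9%.

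The other β2 family members in CD8+ T cells were present in most or all libraries. *Itgb2* was at 6.86, 12.5 and 26.5 normalized molecules in WT mice (lowest, median, highest), 12.3, 13.5 and 40.5 in *muMt*-/- mice and 8.67, 18.2 and 32.0 with GABA. Its highest value was in *muMt*-/- replicate 1, which also held the highest macrophage sum, and the other 5 *muMt*-/- libraries lay within the WT range. The log2 differences from WT were 0.54 (unadjusted p 0.120) and, with GABA, 0.74 (0.09 to 1.39, unadjusted p 0.0325), and neither passed. The difference between *muMt*-/- and WT mice ran from −0.05 to 0.81 in other settings, and from 0.21 to 0.73 with 1 library left out. *Itgax* had at most 9 molecules in a CD8+ library, with medians of 1.62, 2.37 and 2.83 normalized molecules, and its difference of 1.39 between GABA-treated and WT mice (0.29 to 2.49, unadjusted p 0.0180) did not pass. The part of macrophage RNA in the *Itgb2* and *Itgax* values was not tested apart from the covariate fit, which gave 0.22 and 0.81 for GABA-treated against WT mice. *Itgal*, for the αL chain that T cells use to bind ICAMs, had medians of 16.9, 14.7 and 16.3, and its difference between *muMt*-/- and WT mice was −0.04, with values from −0.22 to 0.85 in other settings.

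The highest *Itga4* value in CD8+ T cells was 14.4 normalized molecules, in a WT library. The gene was at 1.83, 7.38 and 14.4 (lowest, median, highest) in WT mice, 0, 3.57 and 8.09 in *muMt*-/- mice and 3.10, 4.07 and 5.49 with GABA. All 6 GABA libraries and 5 of 6 *muMt*-/- libraries lay below the WT median, yet the groups overlapped. The log2 difference between *muMt*-/- and WT mice was −0.90 (95% interval −1.78 to −0.03, unadjusted p 0.0504) and did not pass. *Itgb7* (medians 8.18, 7.63 and 8.35), *Itgb1* (22.3, 20.9 and 20.05) and *Itgav* (4.46, 4.14 and 4.51) had medians within the range of every group, and the signs of *Itgb1* against WT, of *Itgb7* between *muMt*-/- and WT mice and of *Itgal* between GABA-treated and WT mice turned with DESeq2's size factors. *Itgae* had 3, 9 and 4 molecules in the 3 CD8+ groups. *Cd44*, whose protein marks antigen-experienced T cells, had medians of 34.7, 35.6 and 27.4, and its GABA libraries, from 22.9 to 35.9, lay within the WT range of 21.6 to 46.4. Between GABA-treated and untreated *muMt*-/- mice the 9 differences in these cells ran from −0.18 (*Cd44*) to 0.38 (*Itgax*), with *Itgam* at 0.01, and every interval held 0.

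The third comparison set TAMs against CD8+ T cells of the same genotype and treatment, in a fit over all 36 libraries. In WT mice 3 of 9 members were higher in TAMs and 0 lower at an adjusted p under 0.05 in edgeR, against 22.7% of 8477 genes called, 16.8% higher and 5.99% lower. In *muMt*-/- mice 4 were higher and 1 lower (21.4%, 13.6% and 7.71% of genes), and in GABA-treated *muMt*-/- mice 4 were higher and 2 lower (22%, 14.1% and 7.93% of genes). The higher members include *Itgam*, whose protein was a gate, and of the other 8 members 2, 3 and 3 were higher. Levels are in CPM, whereas the log2 differences are after TMM scaling, with which the median of all genes was 0.36, 0.10 and 0.12, and in WT mice it was 0.20 with DESeq2's size factors. Among cell type markers, *Cd3e*, *Cd8a* and the other T cell markers summed to at most 43.5 CPM in a TAM library and at least 2094 in a CD8+ library. Macrophage markers had median sums of 450, 1569 and 2311 CPM in WT, *muMt*-/- and GABA-treated CD8+ libraries, against 20702, 16318 and 18677 in TAMs. The part of macrophage RNA in CD8+ libraries in the differences between cell types below was not tested. Marker sums of NK cells reached at most 92.6 CPM in any library, with *Ncr1* and *Klra8* at 0 in all. Dendritic cell markers, led by *Fscn1* in TAMs and *Ccr7* in CD8+ T cells, reached at most 124 and 645 CPM, and tumour and stroma markers, led by *Col3a1*, reached at most 2081 and 1400. In WT CD8+ libraries *Ccr7* averaged 313 CPM of a mean dendritic cell sum of 349, so that sum mainly gives the *Ccr7* level. *Zbtb46*, *Xcr1*, *Clec9a* and *Cd209a* were at 0 there, and *Clec9a* and *Cd209a* were at 0 in every CD8+ group.

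Because CD11b was a gate for TAMs, the *Itgam* difference between cell types is given as a description only. Its medians were 504, 796 and 634 CPM in WT, *muMt*-/- and GABA-treated TAMs, and 19.5, 50.4 and 169 in CD8+ T cells in the same order. In each genotype and treatment every TAM library lay above every CD8+ library. *Itgax*, which the gates did not use, was higher in TAMs by 2.67 log2 units in WT mice (95% interval 1.76 to 3.57), 1.59 in *muMt*-/- mice (0.89 to 2.29) and 1.27 with GABA (0.65 to 1.88), with edgeR adjusted p-values of 7.11e-06, 0.000511 and 0.00148. The *Itgax* medians were 119, 118 and 125 CPM in TAMs and 28.7, 40.9 and 47.7 CPM in CD8+ T cells, in the same order. *Itgb2* was higher by 1.47 in WT (0.90 to 2.04), 1.47 in *muMt*-/- (0.97 to 1.98) and 0.89 in GABA-treated mice (0.40 to 1.38), with edgeR adjusted p-values of 8.02e-05, 1.08e-05 and 0.00574. All 6 TAM libraries of each group lay above the CD8+ median of *Itgb2*, but 2, 1 and 3 of them did not clear every CD8+ library.

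*Itgal* had lower values in TAMs. Its medians were 102, 61.9 and 75.8 CPM in TAMs and 294, 252 and 282 in CD8+ T cells. The log2 difference was −1.31 in *muMt*-/- mice (95% interval −2.02 to −0.60, edgeR adjusted p 0.00551) and −1.47 with GABA (−2.13 to −0.81, adjusted p 0.000649). In WT mice it was −0.90 and did not pass (adjusted p 0.0663), although it passed in each of 4 other settings and without CD8+ WT replicate 5 (0.0239) or TAM WT replicate 5 (0.0333). All 6 TAM libraries of each group lay below the CD8+ median of *Itgal*.

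*Itgb7* was likewise lower in TAMs, by −1.24 log2 units with GABA (95% interval −1.86 to −0.61, edgeR adjusted p 0.00251). In WT and *muMt*-/- mice its differences of −0.82 and −0.81 did not pass (adjusted p 0.105 and 0.0866). In WT mice it passed with DESeq2's size factors (0.0461), in DESeq2's Wald test (0.0345) and without TAM WT replicate 5 (0.0389). It passed without CD8+ *muMt*-/- replicate 3 (0.0447) or TAM *muMt*-/- replicate 3 (0.0354) or 6 (0.0259) in *muMt*-/- mice. The other β7 partner, *Itgae*, had 0 molecules in *muMt*-/- TAMs and 22.3 CPM in *muMt*-/- CD8+ T cells (9 molecules, 4 of them in replicate 3). It was not tested at the filter used. Without the filter, edgeR called *Itgae* lower in TAMs in *muMt*-/- mice (adjusted p 0.000543) but not in WT or GABA-treated mice (0.256 and 0.493), on these few molecules.

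*Itga4* had TAM medians of 143, 181 and 122 CPM and CD8+ medians of 126, 61.8 and 69.5. In *muMt*-/- and GABA-treated mice every TAM library lay above every CD8+ library, whereas in WT mice the cell types overlapped. The log2 differences were 1.77 in *muMt*-/- mice (95% interval 1.15 to 2.40, edgeR adjusted p 1.71e-05), 1.06 with GABA (0.47 to 1.65, adjusted p 0.00606) and 0.52 in WT mice (−0.08 to 1.12), which did not pass. *Itgb1* differences after TMM scaling were 0.27, 0.25 and 0.30, although its WT and *muMt*-/- medians were lower in TAMs (352 and 354 CPM) than in CD8+ cells (394 and 361 CPM), and those of *Itgav* 0.62, 0.36 and 0.16, none of which passed. *Cd44* differences were 0.34, 0.44 and 0.32, although its WT median was 548 CPM in TAMs and 607 CPM in CD8+ cells, so that no direction is read from the small differences of *Itgb1* and *Cd44*. That of *Cd44* in *muMt*-/- mice (adjusted p 0.0701) passed with DESeq2's size factors (0.0463), in DESeq2's Wald test (0.0162) and without CD8+ *muMt*-/- replicate 5 (0.0359).

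**Figure D4:**
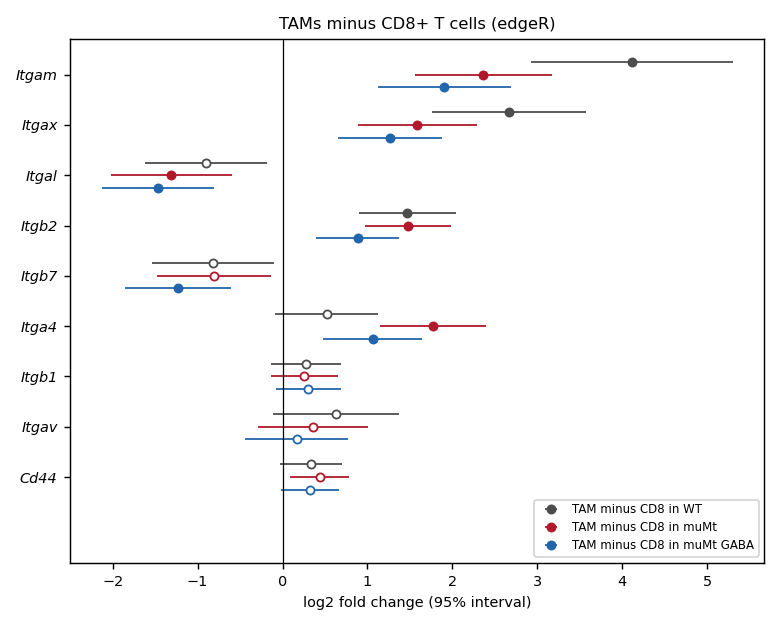
Log2 fold changes (x axis) between TAMs and CD8+ T cells for 9 members with 95% intervals, in WT, *muMt* and GABA-treated *muMt* mice, where filled points passed an adjusted p of 0.05 in edgeR. *Itgax* and *Itgb2* lie above 0 in all 3, *Itgal* and *Itgb7* below 0, and *Itgam* encodes a protein used to sort the TAMs.

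Whether the absence of B cells acted differently in the cell types was tested as an interaction. For *muMt*-/- against WT, edgeR called 0 of 9 members, where 0.0118% of genes were called, and DESeq2's Wald test called 0. At an unadjusted p under 0.05 there were 2 members, against 10.1% of genes: *Itga4*, whose TAM change exceeded its CD8+ change by 1.25 log2 units (95% interval 0.35 to 2.16, unadjusted p 0.00891), and *Itgam*, at −1.75 (−3.38 to −0.12, unadjusted p 0.0401). Leaving out 1 library moved this *Itgam* value to −0.79 without CD8+ *muMt*-/- replicate 1 and −2.72 without CD8+ WT replicate 5. Its unadjusted p was above 0.05 with DESeq2's size factors, in the Wald test and with the replicate number as a block. It was also above 0.05 without CD8+ WT replicate 1, 2, 3, 4 or 6, CD8+ *muMt*-/- replicate 1 or 5, or TAM WT replicate 4. The CD8+ side of this value comes from the libraries in which macrophage markers moved with *Itgam*. The other members were at −1.08 (*Itgax*), −0.41 (*Itgal*), −0.26 (*Itgav*), −0.02 (*Itgb1*), 0.00 (*Itgb2*), 0.01 (*Itgb7*) and 0.10 (*Cd44*). The median over all genes of this difference was −0.30 with TMM and −0.11 with DESeq2's size factors. For the GABA pellet, 0 members were called by either tool and 0 reached an unadjusted p under 0.05, where 0% and 4.53% of genes did. The latter count was 3, all lower, without CD8+ *muMt*-/- replicate 1, 1, lower, without CD8+ GABA replicate 4, and 1, *Itgae*, without the filter. Values ran from −0.71 (*Itga4*) through −0.59 (*Itgb2*), −0.46 (*Itgam*), −0.43 (*Itgb7*), −0.32 (*Itgax*), −0.20 (*Itgav*), −0.16 (*Itgal*) and −0.11 (*Cd44*) to 0.05 (*Itgb1*).

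How far partner chains moved together was described over the 18 libraries of a cell type, after centring each group on its mean. The libraries share depth and handling, so the Spearman rho values are descriptions. In TAMs *Itgal* and *Itgb2* had a rho of 0.73, *Itgam* and *Itgb2* −0.10, *Itgax* and *Itgb2* 0.17, *Itga4* and *Itgb7* 0.04, *Itga4* and *Itgb1* 0.20, and *Itgav* and *Itgb1* 0.22. In CD8+ T cells *Itgax* and *Itgam* had rho values of 0.61 and 0.58 with *Itgb2*, and *Itgal* −0.11. Also in CD8+ T cells, *Itga4* had −0.53 with *Itgb7* and −0.04 with *Itgb1*, and *Itgav* −0.22 with *Itgb1*. *Itgae* was too sparse for such a value.

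The genes most like a member in their levels over the 18 TAM libraries, by Spearman rho among 5309 candidates, were *Gnai2* (0.907), *Zfand5* (0.907) and *Basp1* (0.905) for *Itgam*, and *Bscl2* (0.853), *Btg1* (0.837) and *Cd274* (0.837) for *Itgb2*. For *Cd44* they were *Fam46a* (0.891), *Fos* (0.837) and *Syk* (0.827), and for *Itga4* *Atp2c1* (0.808), *Naa16* (0.736) and *Phf20* (0.732). *Itgax* was nearest to *Ube2d3* (0.789), *Rnf130* (0.750) and *Lgals3bp* (0.730), and *Itgb1* to *F830016B08Rik* (0.814), *Myo10* (0.771) and *Slc39a6* (0.740). In CD8+ T cells, among 1882 candidates, *Itgb1* was nearest to *Wdr43* (0.750), *Spcs2* (0.692) and *Sf3b1* (0.672), and *Cd44* to *Nufip2* (0.659), *Psmd1* (0.645) and *Psmd12* (0.645). Levels were not centred on group means here, so differences between groups enter these rho values. The values are the highest among many candidates over 18 libraries and were not tested against chance, so they are descriptions.

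Around the members stand 90 genes in 6 lists: other integrins, ligands, activators and adaptors, inhibitors, kinases of signalling from bound integrins, and CD44 linkers and shedding enzymes. In TAMs 63 of them were tested. Between *muMt*-/- and WT TAMs 2 were called higher and 0 lower, where 2.05% of all genes were called, and 13 had an unadjusted p under 0.05, where 14.9% of all genes did. Their median log2 fold change was 0.01 against −0.05 for all genes. Both are ligands. *Fn1* encodes fibronectin, which α4β1 and αV integrins bind. It was at 185, 201 and 251 normalized molecules in WT TAMs (lowest, median, highest), 289, 343 and 399 in *muMt*-/- TAMs and 188, 244 and 316 with GABA, and every *muMt*-/- library lay above every WT library. It rose by 0.69 log2 units in *muMt*-/- TAMs (SE 0.142, edgeR adjusted p 0.00527). *Cdh1* encodes E-cadherin, the ligand of αEβ7, and was at 6.54, 8.42 and 9.47 in WT TAMs, 11.2, 15.7 and 33.5 in *muMt*-/- TAMs and 5.31, 10.7 and 20.2 with GABA. Its *muMt*-/- and WT libraries did not overlap either, and it rose by 1.11 (SE 0.284, edgeR adjusted p 0.0287). For *Fn1* and *Cdh1* the fits with depth as a covariate or with a library left out are not given. With depth as a covariate, edgeR called 11 genes in all in this contrast in place of 194.

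With the GABA pellet, 0 of the 63 genes were called in TAMs by edgeR (0.0211% of all genes), and 5 had an unadjusted p under 0.05 (8.46% of all genes). The smallest p-values were those of *Syk*, the kinase downstream of β2 integrins, at −0.76 (0.00124), *Fn1* at −0.40 (0.00787), *Ptk2*, for focal adhesion kinase, at 2.08 (0.0111), and *Tln1*, for talin, which activates integrins, at −0.39 (0.0181). *Ptk2* had few or 0 molecules in a library, with medians of 0.31, 0.39 and 3.19 normalized molecules in WT, *muMt*-/- and GABA-treated TAMs. Its folds here and against WT therefore rest on very low counts. Between GABA-treated *muMt*-/- and WT TAMs 0 were called and 6 had an unadjusted p under 0.05 (0.0739% and 7.02% of all genes), led by the ligand gene *Spp1* at −0.60 (0.00541) and the adaptor gene *Actn4* at −0.54 (0.00549), then *Msn* at −0.40 and *Ptk2* at 1.75. In CD8+ T cells 0 of 53 tested were called in each comparison, with 7, 2 and 9 at an unadjusted p under 0.05, against 6.17%, 3.71% and 6.89% of all genes. For *muMt*-/- against WT mice the smallest p-values were those of *Cd74* at 2.29, *Fn1* at 2.61 and the sheddase genes *Adam17* at 1.71 and *Mmp14* at 1.98. For GABA-treated *muMt*-/- against WT mice they were those of *Adam17* at 1.68, *Fn1* at 2.20, *Cd74* at 1.72 and the kindlin gene *Fermt3* at 0.95. The macrophage marker sum of the same libraries was also higher, by 1.95 and 1.67 log2 units, and its part in these values was not tested. For the GABA pellet the smallest unadjusted p-values in CD8+ T cells were those of *Cdh1* at 1.76 (0.0372), *Mmp14* at −1.01 (0.0424), *Adam10* at −0.61 and *Src* at −1.24. *Cdh1* and *Src* averaged only 1.47 and 1.29 normalized molecules in CD8+ libraries. The GABA libraries of *Cdh1* had a median of 1.01 and a highest value of 10.8.

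Between cell types, 23 of 62 tested genes of these lists were higher in TAMs and 9 lower in WT mice, 23 and 8 in *muMt*-/- mice, and 20 and 9 with GABA. Of all genes, 16.8% were higher and 5.99% lower in WT mice, 13.6% and 7.71% in *muMt*-/- mice, and 14.1% and 7.93% with GABA. In WT mice *Lyn* and *Syk* were higher in TAMs by 4.41 and 3.73 log2 units, while *Fyn* was lower, at −1.42. *Lck* and *Zap70* were called lower in TAMs in all 3, where they had few or 0 molecules, so no fold is given: they reached at most 12.8 and 4.56 CPM in a TAM library and at least 110 and 63.0 CPM in a CD8+ library. In *muMt*-/- and GABA-treated mice *Lyn* differed by 3.04 and 3.0 and *Fyn* by −1.63 and −1.68. In *muMt*-/- mice *Syk* was called higher in TAMs, at least 94.6 CPM there and at most 78.7 CPM in a CD8+ library. *Cd74*, the CD44-associated receptor gene, was higher in TAMs by 4.09 in WT mice and 2.37 with GABA, and *Mmp14* by 2.54 with GABA. *Cdh1* was called higher in *muMt*-/- TAMs, at least 58.3 CPM there and at most 28.9 CPM in a *muMt*-/- CD8+ library. *Itgb5*, the β5 partner of αV, was called higher in TAMs in all 3, with no fold given, since CD8+ libraries held few or 0 molecules. In WT, *muMt*-/- and GABA-treated mice *Itgb5* reached at most 39.6, 47.2 and 76.5 CPM in a CD8+ library. In TAMs it was at least 150, 64.8 and 92.2 CPM in the same order. *Rassf5*, for the RAPL adaptor that activates LFA1, was lower in TAMs in all 3, at −1.16, −1.21 and −1.80, on the same side as *Itgal*. The CD44 linker gene *Ezr*, for ezrin, was also lower, at −0.79, −1.20 and −1.23. For the interactions 0 of the 62 genes were called, with 11 at an unadjusted p under 0.05 for *muMt*-/- against WT, where 10.1% of all genes passed (led by *Fyb* at 1.02, *Mmp14* at −1.72, *Cd74* at −1.88 and *Fn1* at −1.95) and 5 for the GABA pellet, where 4.53% did (led by *Cdh1* at −2.48, *Tln1* at −0.64, *Src* at 2.04 and *Parvg* at −1.07). The interaction values of *Cdh1* and *Src* rest on few molecules in CD8+ libraries.

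In the genome build GRCm38, *Itgam* lies on the plus strand at chr7:128062640-128118491 and *Itgax* at chr7:128129526-128150657, 11034 bases apart with 0 protein-coding genes between them, and *Itgal* ends 727502 bases before *Itgam*. The other members lie on chromosomes 2 (*Itga4*, *Itgav* and *Cd44*), 8 (*Itgb1*), 10 (*Itgb2*), 11 (*Itgae*) and 15 (*Itgb7*). Although neighbours, *Itgam* and *Itgax* had differences of 0.66 and −0.02 between *muMt*-/- and WT TAMs. Promoter sequences from RefSeq on GRCm38 were found for 7 of the 10 members, with *Itgal*, *Itgae* and *Itgb2* the missing entries. The 250 bases before the RefSeq start, which for *Itgav*, *Itgb7*, *Itgax* and *Cd44* lies inside the gene span of the coordinates used above, were searched on both strands for GAGGAA (a core of PU.1 sites), GGGCGG (a GC box) and TGTGGT (a RUNX core). These occurred in 23.3%, 32.7% and 14% of 32851 promoters of this length. Of the 7 members, 4, 3 and 1 held a match.

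The bases upstream of *Itgam* and *Itgax* are shown because these neighbours on chromosome 7 gave different calls in TAMs, a contrast between genes that was not tested. Capitals mark a PU.1 core on the plus strand, a GC box on the minus strand and a PU.1 core on the minus strand, in this order. The *Itgam* stretch is chr7:128062390-128062639 (250 bases) and the *Itgax* stretch chr7:128129300-128129525 (226 bases, up to the annotated start), both on the plus strand. A match describes letters in the window and says nothing of binding, and the *Itgax* window held none of the 3 motifs.
Itgam: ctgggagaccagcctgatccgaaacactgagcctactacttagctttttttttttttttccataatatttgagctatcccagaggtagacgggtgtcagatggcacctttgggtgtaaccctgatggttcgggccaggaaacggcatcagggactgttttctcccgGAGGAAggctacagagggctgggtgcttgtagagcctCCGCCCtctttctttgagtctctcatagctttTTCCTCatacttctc
Itgax: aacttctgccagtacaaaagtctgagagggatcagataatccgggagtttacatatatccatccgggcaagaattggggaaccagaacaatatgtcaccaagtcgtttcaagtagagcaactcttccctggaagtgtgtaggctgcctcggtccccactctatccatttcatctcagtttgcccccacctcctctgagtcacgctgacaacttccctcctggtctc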

How the data were processed

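The authors mapped reads with STAR to mm10 and supplied a deposited count table of molecules for each gene in each library. Spike-in RNA named in the labels was absent from the table. Of 24781 genes, 9188 had 0 molecules.

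Testing was by edgeR 4.0.16 (quasi-likelihood, scaling by TMM, 1 coefficient per group, Benjamini-Hochberg adjustment over all genes tested, threshold 0.05) in R 4.3.3, over the 18 libraries of a cell type or all 36 across cell types, for genes with a mean DESeq2-normalized number above 1. DESeq2 1.42.0 gave size factors and the Wald test. Everything else ran under Python 3.11.15 (pandas 2.3.3, scipy 1.17.1, numpy 2.4.6; figures, matplotlib 3.10.9). Intervals are 1.96 SE to either side. Fits were tested on simulated data.

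The 9 tested members were given in every comparison by name, within a range or within a count, and *Itgae* by its molecules. From the lists of related genes, those called were named (beyond 8, the 5 largest in each direction), otherwise the 4 with the smallest unadjusted p, and for likeness the 3 highest rho values. Members and lists were chosen with earlier results of these data known. Marker lists reported here covered macrophages, monocytes, T cells, neutrophils, dendritic cells, NK cells and tumour or stroma. Results that need items withheld for evaluation are not reported here. Alternatives were DESeq2's size factors, the Wald test, no filter, the replicate number as a block, depth or macrophage markers as a covariate, and leaving out each library.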

Additional observations from a re-analysis of the deposited data

Results flagged for a closer look

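In 54 groups of 6 libraries looked at, 9 members in 6 groups, the highest library stood apart by Dixon's criterion in 2, while chance alone gives about 1 in 20. In WT CD8+ T cells, *Itgam* in replicate 5 was at 6.86 normalized molecules (6 molecules), against 2.25 in the next library and 0 in the lowest. The same library held the highest macrophage marker sum of its group, 2010 CPM. In *muMt*-/- CD8+ T cells, *Itgb2* in replicate 1 was at 40.5 normalized molecules, against 16.4 in the next library and 12.3 in the lowest. That library held the highest macrophage marker sum of all CD8+ libraries, 6644 CPM. The part of macrophage RNA in either value was not tested.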

How the results depend on the processing

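For the 9 tested members, 1389 differences with a library left out stayed on their side of the threshold, 8 newly passed and 7 no longer passed, the 7 being *Itgam* in *muMt*-/- against WT TAMs. Across other settings, 4 newly passed with DESeq2's size factors, 4 in the Wald test, 4 without the filter (and *Itgae*, outside the 9, in *muMt*-/- mice between cell types) and 2 with the replicate block, 1 no longer passed with depth as a covariate, and *Itgam* between *muMt*-/- and WT CD8+ T cells turned to −0.0144 with macrophage markers as a covariate. The cause was not tested. Low counts limit *Itgae* in all libraries and *Itgam*, *Itgax*, *Itgav* and *Itga4* in CD8+ T cells.

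Between *muMt*-/- and WT TAMs, 2 members were called with DESeq2's size factors, in the Wald test, without the filter and with the replicate block, 0 with depth as a covariate, and 0 to 1 with a library left out. All genes called numbered 343 without the filter, 11 with depth as a covariate and 67 to 231 with a library left out, with 87, 125 and 67 without WT replicate 1 or 6 or *muMt*-/- replicate 4. For GABA-treated against untreated *muMt*-/- TAMs, all genes called numbered 7 in the Wald test, 51 without the filter, 4 with the replicate block, 5 with depth and 2 to 36 with a library left out, the 36 without GABA replicate 1, 12 without *muMt*-/- replicate 5 and 5 without *muMt*-/- replicate 2 or GABA replicate 2. For GABA-treated *muMt*-/- against WT TAMs they numbered 3 in the Wald test, 63 without the filter and 2 to 9 with a library left out: 2 without WT replicate 3 or 6 or GABA replicate 2 or 3, and 3 without WT replicate 1, 2 or 4 or GABA replicate 1.

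In CD8+ T cells, 1 member was called without the filter for *muMt*-/- and for GABA-treated *muMt*-/- against WT mice, in both *Itgam*. All genes called for *muMt*-/- against WT numbered 72 without the filter and 0 to 13 with a library left out, the 13 without WT replicate 5. For GABA-treated against untreated *muMt*-/- mice they numbered 11 without the filter, 2 with the replicate block, 6 with depth, 6 with macrophage markers and 0 to 1 with a library left out (*muMt*-/- replicate 6 or GABA replicate 2). For GABA-treated *muMt*-/- against WT mice they numbered 1 with DESeq2's size factors, 1 in the Wald test, 64 without the filter, 1 with the replicate block, 4 with macrophage markers and 0 to 1 with a library left out (WT replicate 6 or GABA replicate 1). Left-out libraries moved the macrophage marker difference between 1.59 and 2.35 for *muMt*-/- against WT and between 1.40 and 2.08 for GABA-treated *muMt*-/- against WT mice.

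Between TAMs and CD8+ T cells of WT mice, 5 members were called with DESeq2's size factors and in the Wald test, and 3 to 5 with a library left out, the 5 without TAM WT replicate 5. The Wald test split 1017 genes higher and 649 lower, against 1420 and 508. For the interaction of *muMt*-/- against WT, all genes called numbered 0 with DESeq2's size factors and in the Wald test, 79 without the filter, 12 with the replicate block and 0 to 9 with a library left out: 9, 4 and 3 without CD8+ WT replicate 5 or CD8+ *muMt*-/- replicate 6 or 2, and 0 without CD8+ WT replicate 4 or 6, CD8+ *muMt*-/- replicate 1 or TAM *muMt*-/- replicate 5. For the GABA interaction they numbered 17 without the filter, 1 with the replicate block and 0 to 2 with a library left out, 2 without CD8+ GABA replicate 1 and 1 without CD8+ *muMt*-/- replicate 6. Replicate numbers were treated as a number only. Same-numbered libraries deviated together (r over 0.1) in 4 of 18 pairs in TAMs, 5 of 18 in CD8+ T cells and 2 of 18 across cell types. Pairs with different numbers did so in 19, 22 and 4 of 90. Whether same-numbered TAM and CD8+ libraries share a mouse is not stated in the labels. The main fits over all 36 libraries treated them as independent.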
